A study of Mus musculus with 14 samples.

Results

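The mitotic G2/M genes are a set of 53 genes whose products carry a cell through G2 and mitosis, from the kinases that start division to the motors, checkpoint proteins and condensins that part the chromosomes. They were taken by symbol from a fixed list that was chosen with earlier results of the data used here known. An excess of members over all genes may thus not be independent of those results. All 53 were found among the 55335 gene identifiers of the UB table and the 52636 of the MM table. The tables come from an RNA-Seq study of how MAPK/ERK signaling, which passes through the kinases MEK1 and MEK2, shapes transcription in the embryonic mouse kidney. Ureteric bud (UB) epithelium, which branches into the collecting duct system, was taken at E12.5, and metanephric mesenchyme (MM), which holds the nephron progenitors, at E13.5.

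All mice were of a mixed C57BL6/Rcc and 129/SvEv background. The 4 UB dko libraries were HoxB7Cre-GFP;Mek1fl/fl;Mek2-/-. Of the 4 UB controls, libraries 1, 3 and 4 were HoxB7Cre-GFP;Mek1fl/+;Mek2+/- and library 2 was HoxB7Cre-GFP;Mek1fl/+;Mek2+/+. The 3 MM dko libraries were Six2-TGC;Mek1fl/fl;Mek2-/- and the 3 MM controls Six2-TGC;Mek1fl/+;Mek2+/+. These genotypes are those of the sample labels, by which every control carried Cre and a floxed Mek1 allele; the study's methods also list UB controls without a floxed Mek1 allele and MM controls that were Mek2+/-, which no label names. By the labels, 3 of the 4 UB controls had a Mek2-null allele and no MM control did. Each library held the cells of both kidneys of an embryo sorted on GFP, which selects cells in which the HoxB7 or Six2 transgene was active. Markers of other cell types were still read, with 5 endothelium markers at a sum of 139.1 to 276.4 normalized counts in the UB controls. The Mek2-null allele of the dko genotype is not limited to cells with an active transgene.

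Entry into mitosis is driven by the kinase CDK1 with B-type cyclins, activated by CDC25 phosphatases and amplified by PLK1 and Aurora A. The spindle checkpoint then holds the anaphase-promoting complex (APC/C) until every kinetochore is attached, after which separase cuts cohesin and the cell divides. Transcripts of these genes rise together late in the cell cycle, largely through promoter elements read by the DREAM and MuvB complexes with B-MYB and FOXM1, and in the embryonic kidney they mark the dividing cells of bud tips and cap mesenchyme.

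Total counts were 4857053 to 7493144 per library in the UB, 5880919 to 6442484 in the MM controls and 1443582 to 3438297 in the MM dko. Reads of Map2k2 (Mek2) cover the whole gene, and which part was deleted is not given in the sources used here, so they can check the labels only in part. They fell from 211 to 279 normalized counts in the MM controls to 11.3 to 24.7 in the MM dko. In the UB dko they were 282, 43.6, 302 and 65.8 in libraries 1 to 4 against 199.7 to 400.0 in the controls, so libraries 1 and 3 lay within the control range, unlike the other dko libraries. The dko libraries with low Map2k2 were also those with a strong trend by GC content, described below. No Map2k2 value corrected for that trend is given here. Reads of Map2k1 (Mek1), the floxed gene, were not lower in dko. They were 170.2 to 236.3 normalized counts in the UB dko against 125.5 to 183.7 in the controls (log2FC 0.37, adjusted p = 0.42, edgeR). In the MM dko they were 112 to 165.4 against 76.2 to 99.8 (0.70, adjusted p = 0.0466). The libraries are called dko as labelled, and the UB counts below are also given by pairs of libraries. Markers of UB epithelium summed to 12830 to 14930 normalized counts in the UB dko and 17060 to 18390 in the controls. Calb1 held the largest part of the sum, with means of 4873 in the dko and 8171 in the controls. Of the 8 markers 1, Ret, was lower at an adjusted p under 0.05 (edgeR). A negative log2FC was seen in 6 and a positive one in 2, Gata3 and Cdh1. Nephron progenitor markers summed to 5711 to 8234 in the MM dko and 5928 to 6993 in the controls, while 6 stromal markers summed to 1562 to 2064 against 711.6 to 822.4, with 3 of 6 higher, and the part of other cell types in the results below was not tested. Mitochondrial ribosomal RNA took 11 to 15.9% of counts in the MM dko and 1.73 to 2.27% in the MM controls, and 1.4 to 7.02% in the UB dko against 1.05 to 1.37%; without the mitochondrial genes and Gm42418 the counts of members called were the same in both tissues.

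Mitotic genes were lower in the UB dko. Of the 53 members, 19 were lower than control at an adjusted p under 0.05 and 0 were higher, where 1.24% of all 13425 genes tested were lower and 2.70% higher (3.93% in either direction). The member median log2FC was -0.69, against 0.06 over all genes, and 50 members had a negative value. The exceptions were Pttg1, the securin that restrains separase, Cdc25b, a phosphatase that starts CDK1 activation, and Spc25, a kinetochore subunit, at log2FC of 0.52, 0.05 and 0.00, none past the test. The groups did not overlap in 28 members, all lower in dko, where 7.06% of all genes were lower and 8.19% higher in that way. At an unadjusted p under 0.05, 31 members were lower and 0 higher (edgeR). In bulk RNA, fewer cells in G2 and mitosis and less transcript per cell cannot be told apart.

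The median over members was below every control in each UB dko library. The median of the 53 members, relative to the control mean on a log2 scale, was -0.77, -0.54, -1.27 and -0.63 in UB dko libraries 1 to 4, and -0.04 to 0.03 in the controls. Of the 53 members, 45, 35, 50 and 40 lay below the lowest control in libraries 1 to 4, and 2, 6, 2 and 7 above the highest. Of all 13425 genes tested, 4367, 5275, 4370 and 4921 lay below the lowest control. Above the highest lay 4623, 5119, 4547 and 4748. Library 3, in which the noncoding RNA Gm42418 took 32.5% of counts, was thus the lowest for the members, and library 2 the highest. With libraries 1 and 3 as the only dko libraries, 41 members were lower and 0 higher (3.89% of all genes lower), and with libraries 2 and 4 alone 29 were lower and 1, Smc4, higher (19.9% of all genes lower). All 19 members called with 4 libraries were called lower with each pair, and 23 members were lower with both pairs. The count fell to 5, 1, 3 and 2 members when UB control 1, 2, 3 or 4 was left out, and to 7 when dko library 4 was. The shares of all genes called in these fits are not given here, so the falls cannot be set against all genes. Plk1 was lower in each of these fits, and the member median stayed between -0.60 and -0.83 with any single UB library left out.

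**Figure D1:**
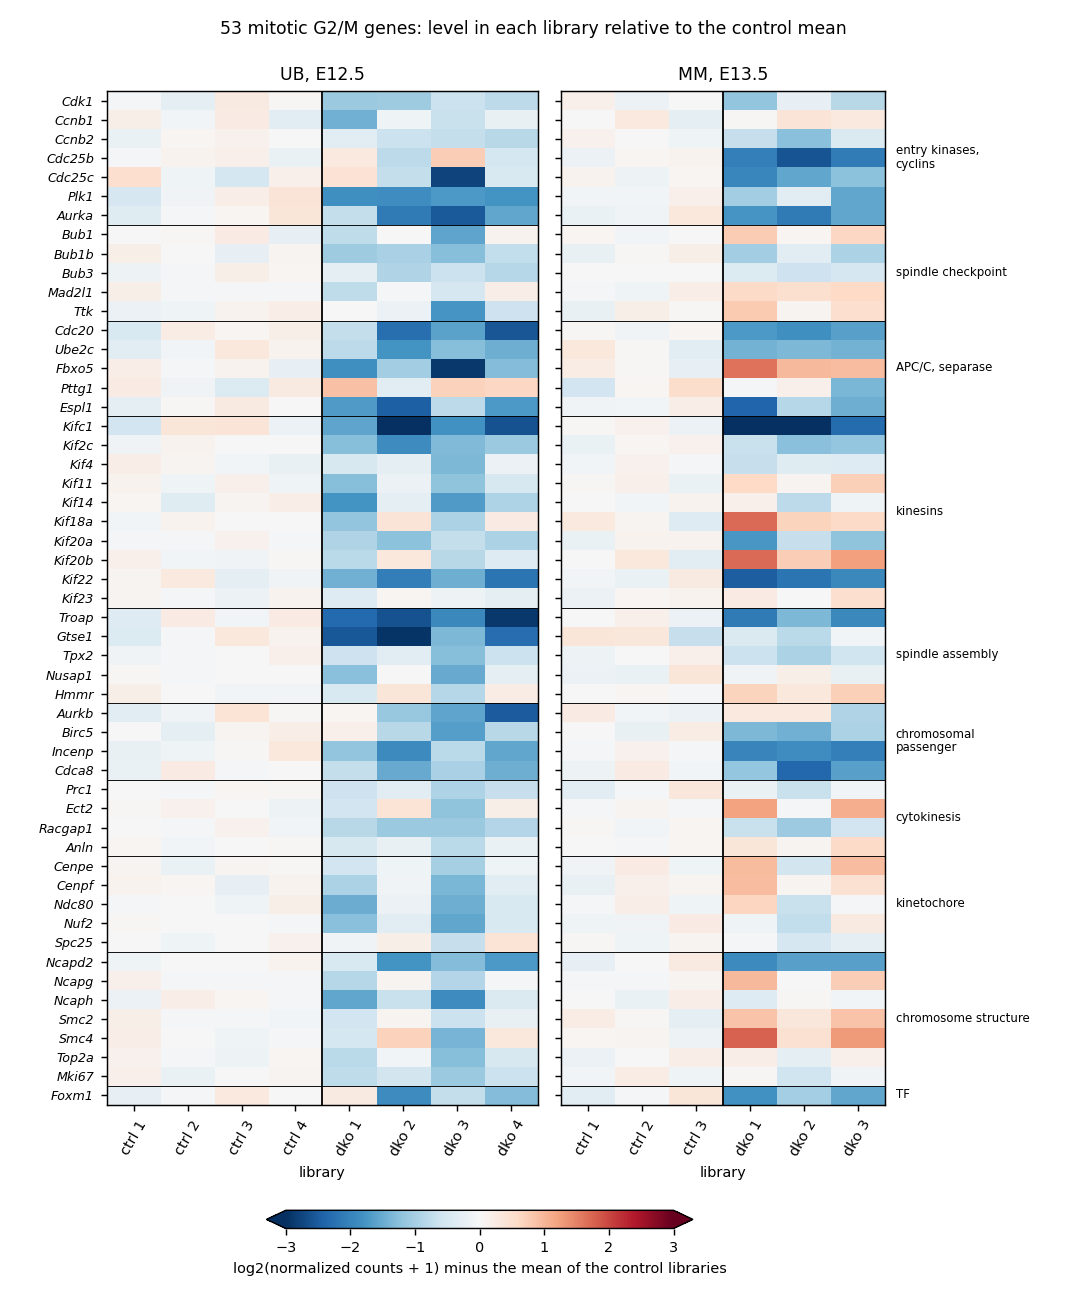
Level of each of the 53 members (rows, grouped by role) in each of the 14 libraries (columns), as log2(normalized counts + 1) minus the mean of the control libraries of that tissue, with UB on the left and MM on the right. Blue marks lower and red higher, and the color scale ends at 3 in each direction; the UB dko columns are mostly blue in all roles, while the MM dko columns hold blue and red rows side by side.

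In the MM dko the members split. Of 53 members, 23 were lower and 12 higher (27.9% and 25.0% of all 12431 genes tested), with a median log2FC of -0.30 against -0.05 over all genes, so the share of members that were higher was near that of all genes. The groups did not overlap in 24 members lower in dko and in 9 higher, against 32.8% and 27.6% of all genes. Scaled by library size only, 28 were lower and 3 higher, in a fit whose all-gene median was also lower, as given at the end. Without MM control 1, MM control 2, MM dko library 1 or MM dko library 3 the number higher was 7, 7, 6 and 6. The shares of all genes called in these fits are not given here, so the counts cannot be set against all genes. The medians of MM dko libraries 1 to 3 were -0.19, -0.54 and -0.27. Lower members included Kifc1, Cdc25b, Kif22, Incenp and Troap, at log2FC of -2.97 to -1.87, and higher ones included Smc4, Kif20b, Fbxo5 and Kif18a, at 1.06 to 1.27. In 16 members an adjusted p under 0.05 was reached with a lower level in both tissues, namely Cdk1, Plk1, Aurka, Bub1b, Cdc20, Ube2c, Espl1, Kifc1, Kif2c, Kif20a, Kif22, Troap, Incenp, Cdca8, Racgap1 and Ncapd2, where 0.805% of the 11558 genes tested in both were lower in both. Gtse1 and Mki67 were lower in the UB and did not pass in the MM without a correction for GC content, described below, with which Mki67 was lower there too.

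**Figure D2:**
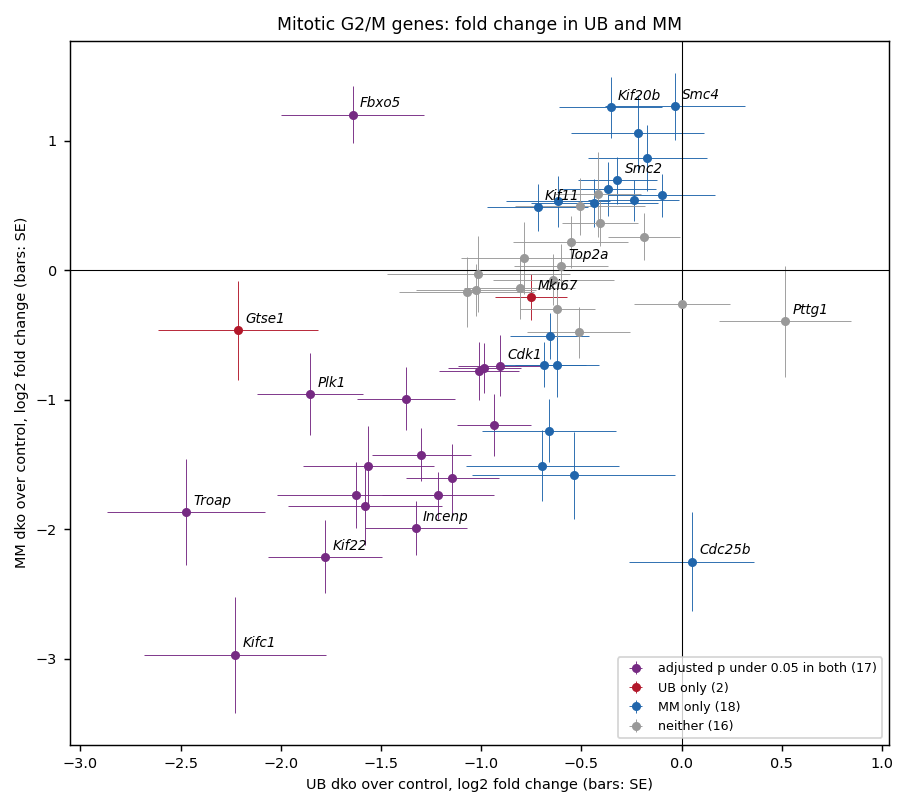
Log2 fold change of dko over control in the UB (horizontal axis) and in the MM (vertical axis) for each of the 53 members, with bars for the SE. Points are colored by where the adjusted p was under 0.05, and Fbxo5 stands alone at the upper left with -1.64 in the UB and 1.20 in the MM.

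The split in the MM followed GC content, the share of G and C bases in the transcript. Across the 53 members the log2FC had a Pearson r with transcript GC of -0.82 in the MM and -0.70 in the UB, and over all genes tested it was -0.75 and -0.38; genes share their libraries, so these are descriptions. Of 27 members with a GC content of 34.8 to 46.4%, 2 were lower and 12 higher in the MM. Of all genes at or below the member median GC of 46.45%, 2.74% were lower and 54% higher. Of the 26 members with 46.6 to 57.9%, 21 were lower and 0 higher. Of all genes above that median GC, 44.5% were lower and 5.82% higher. The medians of those groups of members were 0.49 and -1.22, where all genes on the same side of the median GC had 0.83 and -0.78. These all-gene sets have no outer limit, so they also hold genes of lower or higher GC than any member. The member median of each group thus lay below that of all genes on its side, which were not matched to the members in GC content. In the UB, 2 members of lower GC and 17 of higher GC were lower, where 0.463% and 1.72% of all genes on those sides were. The medians of these groups of members were -0.43 and -1.08, against 0.37 and -0.13 for all genes on those sides. Members of lower GC had medians of -0.765, -0.10, -1.11 and -0.26 in UB dko libraries 1 to 4, and -0.06 to 0.09 in the controls. Those of higher GC had -0.771, -1.65, -1.29 and -1.39 in the same dko libraries. The trend was strong in UB dko libraries 2 and 4 and in all MM dko libraries, where genes in the lowest of 5 GC bins exceeded those in the highest by 1.64 to 3.33 on the log2 scale, and weak in the other libraries, at -0.28 to 0.47.

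**Figure D3:**
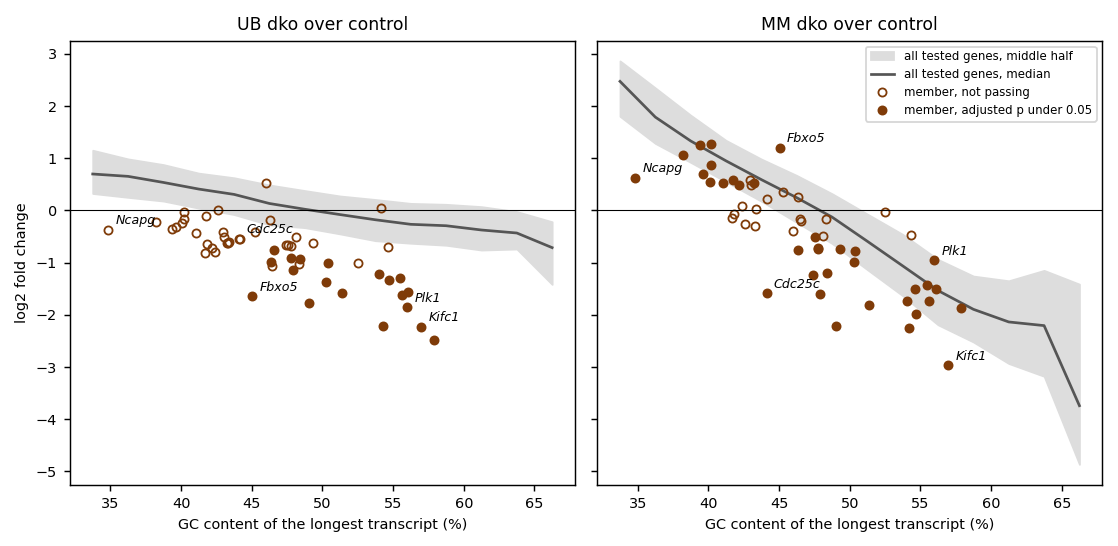
Log2 fold change of dko over control against the GC content of the longest transcript in percent, in the UB (left) and the MM (right). Points are the 53 members, filled where the adjusted p was under 0.05, the line is the median of all tested genes in bins of GC content and the gray band their middle 50%; most members lie below the line, and Fbxo5 lies above it in the MM.

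A second fit gave each gene an offset in each library, taken from a spline over GC content and another over transcript length. With the offsets 41 members were lower and 0 higher in the UB (5.04% of all genes lower and 4.77% higher), with a median of -0.96. In the MM 31 were lower and 1 higher (17.5% and 7.62% of all genes), with a median of -0.68 against -0.20 over all genes. All 19 UB calls were kept. In the MM 15 of 23 lower calls were kept, while of the 12 higher calls Fbxo5 alone was kept and 8 turned to a call of lower. Members lower in both tissues numbered 25, and the share of all genes lower in both with the offsets is not given here. Counts with the offsets are given below for each role group, and offset values for MM members whose direction or call differed.

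**Figure D4:**
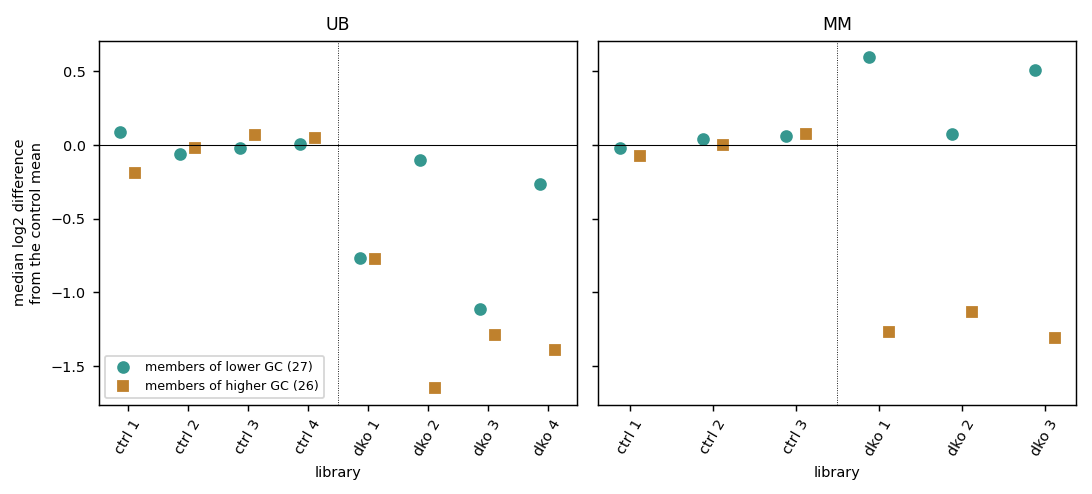
Median over members of the log2 difference from the control mean in each library, for the 27 members of lower GC content (circles) and the 26 of higher GC content (squares), in the UB (left) and the MM (right). In UB dko libraries 1 and 3 both medians lie between -0.77 and -1.29, while in UB dko libraries 2 and 4 and in the MM dko libraries the circles lie far above the squares.

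Promoter sequence was not used to choose the members and was read for the 46 whose start had a window in the RefSeq table of GRCm38.p6, from 250 bases before to 50 after the start. The windows were searched on both strands for the cell cycle genes homology region (CHR; TTTGAA or TTCGAA), the element read by the MuvB complexes, and for the CCAAT box (CCAAT) bound by NF-Y. A CHR was found in 76.1% of member windows, against 19.4% of all 27025 windows and 14.3% of those of 42 S phase genes. A CCAAT box was found in 76.1%, against 37.9% and 61.9%, and both elements in 67.4%, against 7.70% and 11.9%. These are letter matches and not measured binding. Of the 17 members lower in the UB dko that had a window, 14 held both elements, while Troap and Gtse1 held no CHR and Kif2c no CCAAT box. The 6 windows below run from 110 bases before to 20 after the start, with CHR and CCAAT matches on either strand in capitals, so that TTCAAA and ATTGG are the reverse strand of TTTGAA and CCAAT. Kifc1 and Fbxo5 are shown for the results below, and the other 4 as the genes of smallest UB p that hold both elements within this shorter stretch, so they do not stand for all members. They lie on GRCm38.p6 at chr17:33890614-33890743 (minus strand, Kifc1), chr10:5805446-5805575 (minus, Fbxo5), chr7:127042401-127042530 (minus, Kif22), chr15:99651637-99651766 (minus, Racgap1), chr2:164769819-164769948 (plus, Ube2c) and chr4:124936898-124937027 (minus, Cdca8).
Kifc1: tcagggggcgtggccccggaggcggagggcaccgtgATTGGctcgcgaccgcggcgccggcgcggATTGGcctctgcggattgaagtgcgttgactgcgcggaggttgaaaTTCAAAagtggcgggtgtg
Fbxo5: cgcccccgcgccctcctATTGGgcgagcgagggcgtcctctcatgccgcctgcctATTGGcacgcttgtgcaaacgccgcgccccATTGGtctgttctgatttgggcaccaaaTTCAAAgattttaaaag
Kif22: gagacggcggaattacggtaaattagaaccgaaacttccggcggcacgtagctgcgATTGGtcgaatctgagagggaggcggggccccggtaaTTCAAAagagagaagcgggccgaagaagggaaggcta
Racgap1: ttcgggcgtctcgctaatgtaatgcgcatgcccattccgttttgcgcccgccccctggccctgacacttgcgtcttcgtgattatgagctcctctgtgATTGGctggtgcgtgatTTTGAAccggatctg
Ube2c: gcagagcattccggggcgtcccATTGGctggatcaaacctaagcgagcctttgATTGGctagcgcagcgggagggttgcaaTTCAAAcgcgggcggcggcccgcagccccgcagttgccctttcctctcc
Cdca8: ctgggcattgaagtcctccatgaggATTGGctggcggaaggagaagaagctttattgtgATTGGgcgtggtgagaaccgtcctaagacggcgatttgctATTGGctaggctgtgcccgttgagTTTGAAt

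In these windows a CCAAT box precedes the CHR in each gene, and the CHR lies within 29 bases of the start. Of the genes shown, Kif22 and Ube2c, with the CHR at -17 and -29, were lower in both tissues, as were Kifc1, Racgap1 and Cdca8, with the CHR just after the start. Fbxo5 holds the same elements, 3 CCAAT boxes and a CHR at position 4, and went in opposite directions in the UB and the MM.

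Among the kinases and cyclins of mitotic entry, 3 of 7 members fell in the UB dko and 6 of 7 in the MM dko, where 1.24% and 27.9% of all genes were lower. With the offsets 4 of 7 were lower in each tissue, where 5.04% of all genes in the UB and 17.5% in the MM were. Plk1 (chromosome 7 from 122159439 to 122169873, plus strand), the polo-like kinase that promotes CDK1 activation, centrosome maturation and cytokinesis, had 203, 270.3, 333 and 381 normalized counts in the UB controls and 79.6, 78.4, 87.2 and 83.1 in the UB dko. The dko libraries lay close together below every control, and the log2FC was -1.85 (SE 0.26, adjusted p = 0.00582). In the MM Plk1 had 140.1, 140.0 and 163 against 71.4, 117 and 49.2 normalized counts, again without overlap (log2FC -0.96, SE 0.32, adjusted p = 0.0212). With the offsets its MM value was 0.34 (adjusted p = 0.407), so the lower Plk1 level in the MM did not hold across fits, while in the UB it was -1.41 (adjusted p = 0.00597).

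Cdk1, the kinase that starts mitosis, had 429.8, 367, 534 and 453 normalized counts in the UB controls and 204, 209, 283 and 255 in the dko. No dko library reached a control (log2FC -0.91, SE 0.21, adjusted p = 0.0366), and the MM value was -0.74 (SE 0.24, adjusted p = 0.0175). Aurka, which encodes the Aurora A kinase of centrosomes and spindle poles, had 193, 237, 258 and 320.0 against 152, 56.6, 42.2 and 83.1 in the UB, with dko library 1 the nearest to the controls (log2FC -1.58, SE 0.38, adjusted p = 0.0431). In the MM it had 137, 146 and 198 against 45.4, 35.3 and 52.6 (log2FC -1.82, SE 0.31, adjusted p = 0.000265).

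Cdc25b differed between tissues. In the UB it had 307, 345, 351 and 276 normalized counts in the controls and 388, 183, 534 and 221 in the dko, with dko libraries 1 and 3 above every control and 2 and 4 below every one (log2FC 0.05, SE 0.31, adjusted p = 0.944). With libraries 2 and 4 alone it was lower (-0.66, adjusted p = 0.0156), and with 1 and 3 alone 0.49 (adjusted p = 0.167). In the MM it had 80.3, 94.7 and 98.5 against 21.1, 14.1 and 20.4 (log2FC -2.25, SE 0.38, adjusted p = 0.000279), and -1.30 with the offsets. The remaining entry genes, Ccnb1, Ccnb2 and Cdc25c, did not pass in the UB, and in the MM Ccnb2 and Cdc25c were lower, at -0.73 and -1.58, with -0.46 (adjusted p = 0.182) and -2.25 with the offsets.

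In the spindle checkpoint, which delays anaphase until chromosomes are attached, Bub1b fell alone of 5 genes in the UB (1.24% of all genes fell). In the MM 2 fell and 2 rose (27.9% and 25.0% of all genes). With the offsets 4 were lower in the UB and 3 in the MM (5.04% and 17.5% of all genes). Bub1b, whose product BUBR1 is part of the mitotic checkpoint complex, had 586, 518, 439 and 557 normalized counts in the UB controls and 248, 266, 215 and 312 in the dko. Every dko library was below every control (log2FC -1.01, SE 0.20, adjusted p = 0.0201), as in the MM, where it had 335, 400.4 and 437 against 187, 311 and 200.3 (-0.78, SE 0.23, adjusted p = 0.0103) and the offsets gave -0.54 (adjusted p = 0.0682). Bub3, which carries BUBR1 and BUB1 to kinetochores, had 602, 646, 758 and 702 against 552, 362, 430.3 and 369.8 in the UB, with no overlap but an adjusted p of 0.0842 (-0.66, SE 0.20), and fell in the MM, from 424, 419 and 420.4 to 315, 272 and 299 (-0.51, SE 0.18, adjusted p = 0.0252). Bub3 lies within an opposite-strand span of Fgfr2, and whether counting used strand is not given in the sources used here, so reads of the pair cannot be told apart. Mad2l1, the MAD2 protein that binds CDC20, had 552, 526 and 662 in the MM controls and 861, 802 and 867 in the dko. It was higher in all MM dko libraries (0.54, SE 0.16, adjusted p = 0.0107) but lower with the offsets (-0.90, adjusted p = 0.00144).

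In the APC/C and separase group 4 of 5 members fell in the UB, with and without the offsets (5.04% and 1.24% of all genes). In the MM 3 fell and 1 rose (27.9% and 25.0% of all genes). With the offsets none of the 5 was lower in the MM and 1 was higher (17.5% and 7.62% of all genes). Ube2c, the ubiquitin-conjugating enzyme of the APC/C, had 524, 634, 830.1 and 719.6 normalized counts in the UB controls and 388, 193, 276 and 240.1 in the dko, without overlap (log2FC -1.30, SE 0.25, adjusted p = 0.0178). Espl1, which encodes separase, had 298, 372, 441 and 358 against 111, 65.3, 211 and 110.4, with dko library 3 the highest of the dko (-1.56, SE 0.33, adjusted p = 0.0247). Cdc20, the APC/C activator, had 194, 311, 282 and 306 against 165, 55.2, 87.2 and 44.6, and dko library 1 lay just below the lowest control (-1.62, SE 0.39, adjusted p = 0.0431). In the MM Ube2c had 673, 553 and 429 against 203, 212 and 202, and Cdc20 had 213, 191 and 215 against 61.6, 56.5 and 66.2, both without overlap. There Ube2c, Cdc20 and Espl1 fell by 1.43, 1.74 and 1.51 on the log2 scale (adjusted p = 7.91e-05, 8.87e-05 and 0.00123), and with the offsets the values were -0.18, -0.40 and -0.34, none past the test. Ube2c overlaps Tnnc2 on the opposite strand.

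Fbxo5 (chromosome 10 from 5799160 to 5805600, minus strand), which encodes EMI1, the inhibitor that keeps the APC/C off until mitosis, moved in opposite directions. It had 338, 279, 315 and 244 normalized counts in the UB controls and 80.4, 141, 38.1 and 118 in the UB dko. All UB dko libraries were below all controls (log2FC -1.64, SE 0.36, adjusted p = 0.028). In the MM it had 303, 265 and 217 in the controls and 798, 509 and 491 in the dko. There every dko library was above every control (1.20, SE 0.22, adjusted p = 0.000464), and with the offsets the values were -1.78 in the UB and 0.76 in the MM (adjusted p = 0.000932 and 0.00765). Fbxo5 was the only member called lower in the UB and higher in the MM, a pattern seen in 0.0519% of the 11558 genes tested in both.

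**Figure D5:**
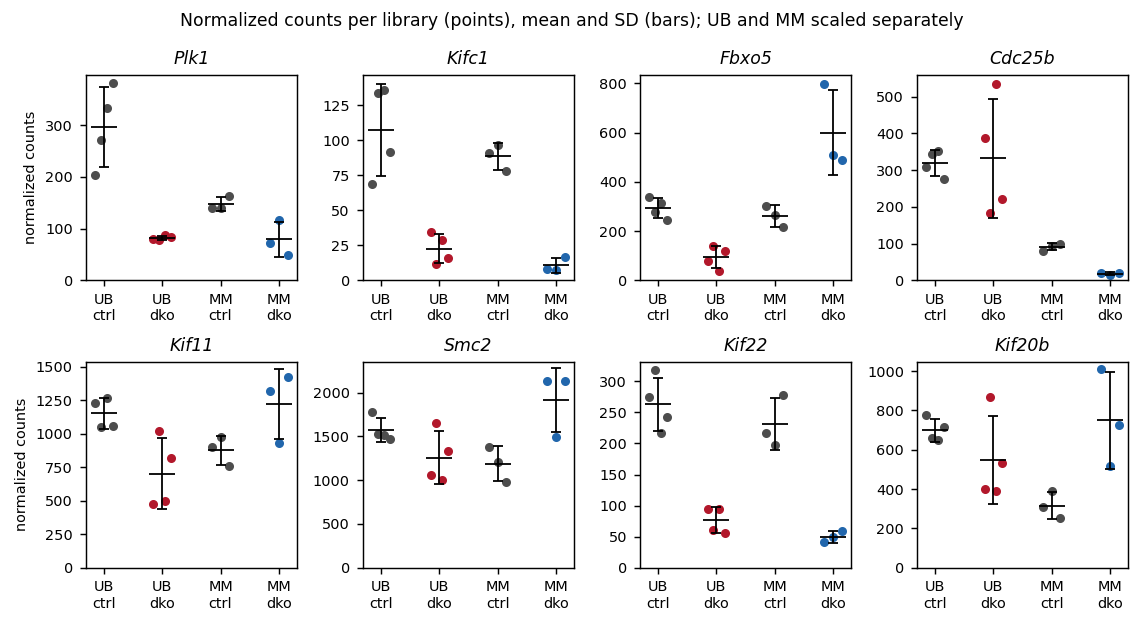
Normalized counts of 8 members in each library (points), with the mean and SD of each group as bars, for UB control (n = 4), UB dko (n = 4), MM control (n = 3) and MM dko (n = 3). UB and MM were scaled separately; Plk1, Kifc1 and Kif22 are low in dko of both tissues, and Fbxo5 is low in UB dko and high in MM dko.

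The kinesins, motor proteins that move along microtubules, were lower in 4 of 10 cases in the UB, where 1.24% of all genes were lower. In the MM 4 were lower and 3 higher, where 27.9% of all genes were lower and 25.0% higher, so the share higher was near that of all genes. With the offsets 8 were lower in the UB (5.04% of all genes), and 7 lower and 0 higher in the MM (17.5% and 7.62% of all genes). Kifc1 (chromosome 17 from 33875659 to 33890661, minus strand), the minus-end motor that bundles spindle poles, had 69.0, 134, 136 and 91.7 normalized counts in the UB controls and 34.2, 11.6, 28.6 and 16.2 in the dko. No library overlapped between groups (log2FC -2.23, SE 0.46, adjusted p = 0.0231). In the MM it had 91.2, 96.7 and 78.1 against 8.11, 7.07 and 17.0, the lowest log2FC of any member there (-2.97, SE 0.45, adjusted p = 0.000109; -1.48 with the offsets). Kif22, a chromosome-arm motor, had 274, 318, 217 and 242 against 94.7, 61.0, 94.0 and 55.7 in the UB (-1.78, SE 0.29, adjusted p = 0.00972), with all 4 dko libraries below all controls. Kif22 in the MM had 217, 198 and 278 against 40.5, 49.5 and 59.4, and the log2FC was -2.21 (SE 0.28, adjusted p = 3.01e-05) and -2.20 with the offsets. The gene overlaps the antisense transcript Gm31749.

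Kif2c, which depolymerizes microtubules at kinetochores, fell from 274, 317, 291 and 293 to 121, 78.4, 117 and 135 in the UB (log2FC -1.38, SE 0.24, adjusted p = 0.0145), and by 0.99 on the log2 scale in the MM. Kif20b and Kif11 were higher in the MM. Kif20b, a motor of the spindle midzone, had 310.2, 388 and 250.2 in the MM controls and 1009, 516 and 726 in the dko (1.26, SE 0.24, adjusted p = 0.000583), all dko libraries above all controls, and -0.33 (adjusted p = 0.198) with the offsets. In the UB it had 777, 658, 649 and 714 against 398, 866, 392 and 535, with dko library 2 above and the other dko libraries below every control (-0.35, SE 0.26, adjusted p = 0.459). Kif11, the plus-end motor that separates spindle poles, had 898, 971 and 759 against 1319, 929 and 1422 in the MM, with dko library 2 within the control range (0.49, SE 0.18, adjusted p = 0.0345). In the UB it had 1231, 1053, 1268 and 1056 against 473, 1018, 497 and 817, libraries 1 and 3 the lowest (-0.72, SE 0.25, adjusted p = 0.129). With the offsets Kif11 was lower in the MM (-0.58, adjusted p = 0.00778) and in the UB (-1.16, adjusted p = 0.000114).

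Of 5 spindle assembly members 2 fell in the UB (1.24% of all genes), 1 of them with the lowest UB log2FC of the 53. In the MM 2 fell and 1 rose (27.9% and 25.0% of all genes). With the offsets 4 were lower in the UB and 3 in the MM (5.04% and 17.5% of all genes). Troap, a protein needed for bipolar spindle assembly, had 84.7, 132, 105 and 133 normalized counts in the UB controls and 21.5, 17.4, 28.6 and 14.2 in the dko. The groups were far apart (log2FC -2.47, SE 0.39, adjusted p = 0.00971). Gtse1, a microtubule-binding protein of G2 and M phase, had 122, 158, 203 and 175 against 27.1, 20.3, 62.6 and 32.4, again without overlap (-2.21, SE 0.40, adjusted p = 0.0152). In the MM Troap had 74.8, 81.8 and 65.3 against 16.2, 28.3 and 18.7, without overlap (-1.87, SE 0.41, adjusted p = 0.00175), and -0.31 (adjusted p = 0.592) with the offsets. Gtse1 had -0.46 (adjusted p = 0.322) in the MM and 0.52 (adjusted p = 0.366) with the offsets. Tpx2, which activates Aurora A on the spindle, had 627, 702 and 786 against 449, 360.5 and 460.0 in the MM (-0.73, SE 0.17, adjusted p = 0.00308), and -0.92 with the offsets. Tpx2 in the UB was -0.69 (adjusted p = 0.0871).

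In the chromosomal passenger complex, the Aurora B kinase module that corrects attachments and steers cytokinesis, 2 of 4 genes fell in the UB and 3 of 4 in the MM, where 1.24% and 27.9% of all genes were lower. The offsets gave the same counts, where 5.04% and 17.5% of all genes were lower. Incenp, its scaffold, had 613, 652, 737 and 899 normalized counts in the UB controls and 315, 190.2, 409.9 and 241 in the dko. All dko values were below all controls (log2FC -1.33, SE 0.25, adjusted p = 0.0181). In the MM Incenp had 395, 451 and 399 against 104, 113 and 98.5, tightly grouped (-1.99, SE 0.21, adjusted p = 6.79e-06; -0.99 with the offsets, adjusted p = 0.00278). Cdca8, which encodes the subunit borealin, had 467, 642, 522 and 537 against 326, 187, 272 and 193 in the UB (-1.14, SE 0.23, adjusted p = 0.0222) and 313, 411 and 326 against 154, 67.1 and 112 in the MM (-1.61, SE 0.27, adjusted p = 0.000237), and -1.78 with the offsets. Cdca8 overlaps an opposite-strand gene, 9930104L06Rik. Aurkb itself did not pass in either tissue, with dko levels that ran from 38.5 to 233 normalized counts in the UB.

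Of 4 cytokinesis members 1 fell in the UB, where 1.24% of all genes were lower. In the MM 1 fell and 1 rose, which is near the 27.9% and 25.0% of all genes. With the offsets 4 were lower in the UB and 3 in the MM (5.04% and 17.5% of all genes). Racgap1, the centralspindlin subunit that positions the cleavage furrow, had 485, 473, 528 and 455 normalized counts in the UB controls and 269.7, 225, 223 and 262 in the dko, both groups narrow and apart (log2FC -0.98, SE 0.18, adjusted p = 0.0172). Racgap1 in the MM had 464, 429.5 and 475 against 285, 212 and 306, again apart, with a log2FC of -0.75 (SE 0.19, adjusted p = 0.00456) and -1.17 with the offsets. Prc1, which bundles midzone microtubules, did not overlap between groups in the UB either, at 657, 638, 691 and 683 against 431, 539, 353 and 414, but its adjusted p was 0.0842 (-0.62, SE 0.19). Prc1 lies wholly within the span of Rccd1 on the opposite strand (21810 bases), and in all 32 of 53 members are overlapped by another annotated gene, 22 of them by one on the opposite strand, whose reads cannot be told apart. Ect2, the exchange factor that turns on RhoA at the furrow, had 554, 606 and 557 in the MM controls and 1329.9, 548 and 1227 in the dko. MM dko library 2 lay below every control, the log2FC was 0.87 (SE 0.25, adjusted p = 0.0121), and with the offsets it was -0.59 (adjusted p = 0.0352).

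No kinetochore member of 5 passed in the UB at an adjusted p under 0.05 (edgeR; 3 at an unadjusted p under 0.05), and Cenpf alone passed in the MM, where it was higher. Of all genes, 1.24% were lower in the UB, and 27.9% were lower and 25.0% higher in the MM. With the offsets 4 of the 5 members were lower in the UB, where 5.04% of all genes were. In the MM Ndc80, Nuf2 and Spc25 were lower with the offsets, at -0.96, -1.31 and -1.09 (adjusted p = 0.0119, 0.00069 and 0.000467), as were 17.5% of all genes. Nuf2 and Ndc80, subunits of the complex that grips microtubule ends, had 399, 388, 395 and 384 normalized counts against 163, 314, 132 and 287 for Nuf2, and 285, 297, 273 and 334 against 105, 263, 106 and 216 for Ndc80. Neither gene overlapped between groups, with UB dko libraries 1 and 3 the lowest for both, yet the adjusted p was 0.123 and 0.175. With libraries 1 and 3 alone the log2FC was -1.44 and -1.53 (adjusted p = 0.00188 and 0.00287). Cenpf, a large kinetochore protein, had 821, 1063 and 1015 against 1838, 1025 and 1312 in the MM, with dko library 2 within the controls (0.53, SE 0.20, adjusted p = 0.0374; -0.38 with the offsets, adjusted p = 0.102). Cenpe, the kinetochore motor, had 833, 1053 and 816 against 1716, 615 and 1691 there, which did not pass (0.59, SE 0.33, adjusted p = 0.161), nor did the offset value of -0.39 (adjusted p = 0.291).

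Of 7 chromosome structure genes 2 fell in the UB (1.24% of all genes). In the MM 1 fell and 3 rose (27.9% and 25.0% of all genes). With the offsets 7 were lower in the UB and 5 in the MM (5.04% and 17.5% of all genes). Ncapd2 fell in both tissues. Ncapd2, a subunit of condensin I, had 1330.1, 1465, 1479 and 1586 normalized counts in the UB controls and 1063, 421, 589.7 and 445 in the dko, with dko library 1 the highest (log2FC -1.22, SE 0.28, adjusted p = 0.0347). Ncapd2 in the MM had 977, 1156 and 1397 against 308, 375 and 379, all dko libraries far below (-1.74, SE 0.18, adjusted p = 6.88e-06; -0.87 with the offsets). The condensin core subunits went the other way in the MM. Smc4 had 1382, 1417 and 1208 in the MM controls and 4562, 1834 and 3220.0 in the dko (1.27, SE 0.26, adjusted p = 0.00152), and Smc2 had 1375, 1212 and 981 against 2128, 1495 and 2134 (0.69, SE 0.18, adjusted p = 0.00557). Both were above control in all MM dko libraries, while with the offsets Smc4 had -0.19 (adjusted p = 0.471) and Smc2 was lower, at -0.83 (adjusted p = 0.000335). In the UB Smc2 had 1779, 1524, 1514 and 1468 against 1054, 1649.7, 997 and 1333, with dko library 2 within the controls (-0.32, SE 0.20, adjusted p = 0.38). The GC content of the Smc4 and Smc2 transcripts was 40.2% and 39.7%. Mki67, the Ki-67 proliferation marker, had 5163, 4059.5, 4619 and 4945 against 2758, 3217, 2161 and 3013 in the UB (-0.75, SE 0.18, adjusted p = 0.0417) and -0.21 (adjusted p = 0.354) in the MM, where it was lower with the offsets (-0.61, adjusted p = 0.00747). Counted per transcript length, Top2a and Mki67 were the 2 most abundant members in the UB controls, at 118 and 74.0 RPKM, and Kif14, Troap and Kifc1 the 3 least, at 4.94, 6.82 and 7.23.

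Foxm1, the forkhead factor that drives G2/M transcription, had 320.0, 371, 467 and 385 normalized counts in the UB controls and 459, 103, 232 and 154 in the dko. Library 1 lay within the controls and the other dko libraries below all of them (log2FC -0.70, SE 0.38, adjusted p = 0.325). In the MM it had 232, 277 and 374 against 81.1, 141 and 96.8, without overlap (-1.51, SE 0.27, adjusted p = 0.00043), and -0.54 (adjusted p = 0.0945) with the offsets.

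The test of the difference between tissues, on 14 libraries together, called 5 members. They were Fbxo5, Cdc25b, Kif20b, Smc2 and Kif11, where 6.14% of 15225 genes were called, 4.33% lower and 1.81% higher in the MM than in the UB. Without UB dko library 2 or MM dko library 2 the number was 15 and 8, without UB control 1, 2, 3 or 4 it was 2, 2, 3 and 2, and without UB dko library 1 it was 3. Without MM control 1, 2 or 3 it was 2, 3 and 1, and without MM dko library 1 or 3 it was 1. With UB dko libraries 1 and 3 alone it was 26, where 32.7% of all genes were called. For the fits without a single library such shares are not given here, so their numbers cannot be set against all genes. Fbxo5 rose in the MM by 2.87 more than in the UB on the log2 scale (SE 0.45, adjusted p = 0.00444), and 2.48 with the offsets. Cdc25b had a difference of -2.27 (SE 0.50, adjusted p = 0.0203) and -1.48 with the offsets. The differences of Kif20b and Kif11 were 1.64 and 1.23 (adjusted p = 0.0264 and 0.0438), and that of Smc2 was 1.04 (adjusted p = 0.0433) and fell to 0.11 with the offsets (adjusted p = 0.802). The tissues were taken at different stages with different Cre lines, and their controls differ in the share with a Mek2-null allele. Tissue, stage, Cre line and control genotype thus cannot be told apart. The strong GC trend was in all MM dko libraries but only in libraries 2 and 4 of the UB dko, and its part in these differences was not tested.

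Other genes of the pathway were read for comparison. Of 107 other mitotic genes tested, 4 fell in the UB and 0 rose (1.24% and 2.70% of all genes), with a median of -0.49. The 4 were Kntc1, Cenpa, Hjurp and Cdca2. Cenpa, the histone that marks centromeres, had 379, 527, 430.1 and 641 normalized counts in the controls and 159, 249.8, 165 and 264 in the dko (log2FC -1.24, SE 0.25, adjusted p = 0.0234), and Cdca2, a phosphatase subunit of anaphase chromatin, had -1.08 (SE 0.21, adjusted p = 0.0178). With the offsets 37 fell and 0 rose (5.04% and 4.77% of all genes). The highest placed by p were Kif3a and Kifap3, at 0.77 and 0.68 (adjusted p = 0.0963 and 0.148). In the MM 32 fell and 28 rose, with a median of 0.02, which is near the 27.9% and 25.0% of all genes, and with the offsets 46 fell and 3 rose (17.5% and 7.62% of all genes). Numa1, which anchors spindle poles, and H2afx, a histone of DNA damage signaling, led the MM falls, at -2.58 and -3.87, and Cenpw and Pds5b led the rises, at 1.62 and 1.16 and at -0.72 and -0.13 with the offsets.

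Of 16 regulators of G2/M transcription, E2f7 and E2f8 fell and Rbl2 rose in the UB, where 1.24% and 2.70% of all genes did. Rbl2, which encodes the pocket protein p130 of the repressive DREAM complex, had 151, 147, 98.7 and 138 normalized counts in the UB controls and 318, 302, 267 and 231 in the dko. All dko libraries were above all controls (log2FC 1.06, SE 0.24, adjusted p = 0.0339). E2f7 and E2f8, atypical repressors of E2F targets, fell by 1.18 and 1.08 on the log2 scale (adjusted p = 0.0217 and 0.0247). E2f5 had 0.27 (adjusted p = 0.515). In the MM 5 regulators fell and 7 rose, where 27.9% and 25.0% of all genes did, and with the offsets 1 fell and 1 rose (17.5% and 7.62%). Nfyb, an NF-Y subunit, and Lin54, the MuvB subunit that binds the CHR, were higher, at 1.12 and 1.04 (adjusted p = 0.000239 and 0.000384), and Nfyc was lower, at -1.06 (adjusted p = 0.00693); none of these calls was kept with the offsets. Mybl2, the B-MYB activator of G2/M genes, fell from 91.8, 95.4 and 97.9 to 16.2, 38.9 and 10.2 (-2.27, SE 0.45, adjusted p = 0.000893), and had -1.05 (adjusted p = 0.0765) with the offsets.

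For scale, among 53 genes of S phase and replication 13 were lower and 0 higher in the UB (median -0.92), where 1.24% and 2.70% of all genes were. In the MM 32 were lower and 4 higher (median -0.68), where 27.9% and 25.0% of all genes were. With the offsets the counts were 34 lower and 0 higher in the UB (5.04% and 4.77% of all genes). In the MM they were 32 lower and 1 higher (17.5% and 7.62% of all genes). The mitotic members had medians in the UB above those of the S phase genes without the offsets (-0.69 against -0.92) and below them with the offsets (-0.96 against -0.89). The difference between these lists was not tested.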

How the data were processed

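RNA of sorted cells was read single-end (NuGEN Ovation Solo, ribosomal sequences removed after library generation). The authors trimmed reads with Trimmomatic, mapped them to GRCm38 with STAR and counted genes with featureCounts of Subread on GENCODE M23. The deposited tables give each gene's raw read count, without scaling. The submitters' notes also name HISAT2, HTSeq and DESeq2 without their roles, and whether counting used strand is not given in the sources used here. The members and gene lists were chosen with earlier results of these data known.

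Each tissue was tested on its own table by edgeR's quasi-likelihood F test (version 4.0.16, R 4.3.3, robust, TMM). Genes passed filterByExpr with settings of 10 for the count and 15 for the total, and p-values were adjusted by Benjamini-Hochberg over all genes tested. A normalized count is a count scaled by TMM to the average effective depth of its tissue. The SE was derived from F. The difference between tissues was a contrast over 14 libraries. Offsets came from natural splines with 4 degrees of freedom of GC content and log2 length of the longest transcript (GENCODE M21). Values in every library are given for Plk1 and Kifc1, for the 2 members of smallest p in each role group and tissue, and for members that differed between tissues; Bub3, Aurka and Cdc20 are also given in the other tissue. Of the other lists, the 2 genes of smallest p in each direction were named. Other settings were DESeq2 1.42.0, RLE scaling, library size only, other filters, voom with quality weights (limma 3.58.1), a replicate block and leaving out libraries. Scripts were tested on simulated data. Depth was lowest in the MM dko, and p-values measure the spread between embryos, each library holding the kidneys of 1 embryo. The library titles carry a code that some libraries of a group share, and no control shares one with a dko library of its tissue. What the code marks is not given in the sources used here. It cannot be told apart from genotype, and libraries with the same code may not be independent.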

Additional observations from a re-analysis of the deposited data

Results flagged for a closer look

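Members whose effect of dko differed between the UB and the MM, by the test of the difference itself over 14 libraries, were Fbxo5 (MM minus UB log2FC 2.87), Cdc25b (-2.27), Kif20b (1.64), Smc2 (1.04) and Kif11 (1.23). Over 20 other settings Fbxo5 was called in all 20, with differences from 2.42 to 3.43 and a largest adjusted p of 0.0259. Cdc25b was called in 17 of 20, Kif20b in 11, Kif11 in 7 and Smc2 in 6. With the offsets the values were 2.48, -1.48, 0.72, 0.11 and 0.67 for Fbxo5, Cdc25b, Kif20b, Smc2 and Kif11. Control genotype, Cre line, stage and tissue cannot be told apart in this contrast.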

How the results depend on the processing

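Settings other than those by pairs of UB dko libraries were planned; the pairs were chosen after seeing the data. The 19 members lower in the UB became 31 with voom, 41 with the offsets, 41 with dko libraries 1 and 3 alone and 29 with libraries 2 and 4 alone (with 1 member higher), and 1 to 24 with a library left out. DESeq2, RLE scaling, library size only and no filter gave 23, 18, 17 and 21. Replicate numbers did not pair the samples (r of same-numbered deviations -0.27 to 0.11 in the UB and -0.05 to -0.02 in the MM, and no library correlated best with its own number); with the replicate block the UB count was 2, with the block and offsets 40, and MM counts with the block were 22 lower and 10 higher. The number of MM members higher (12) was 3 with library size only, 1 with the offsets, 1 with block and offsets, and 6 to 15 with a library left out. The MM median was -0.69 with library size only, -0.68 with the offsets and -0.64 with block and offsets. The all-gene median, 0.06 for the UB and -0.05 for the MM, was -0.28 and -0.44 with library size only, and DESeq2 gave 0.19 for the MM. Differences between tissues (5) numbered 2 with library size only, 7 with the offsets, 26 with UB dko libraries 1 and 3 alone, and 1 to 15 with a library left out. For most of these settings the share of all genes called is not given here, so changes in the counts cannot be set against all genes.

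Signs turned in the UB for E2f5, to -0.078 with library size only and -0.074 with dko libraries 1 and 3 alone, and for Cdc25b, to -0.36 with library size only, -0.44 with voom, -0.066 with the replicate block and -0.66 with libraries 2 and 4 alone; Cdc25b ran from -0.29 to 0.25 with a library left out. In the MM the offsets, without and with the block, gave 0.34 and 0.33 for Plk1, -0.90 and -0.89 for Mad2l1, -0.59 and -0.64 for Ect2, -0.38 and -0.39 for Cenpf, -0.39 and -0.45 for Cenpe, -0.19 and -0.23 for Smc4, -0.72 and -0.72 for Cenpw, -0.13 and -0.13 for Pds5b, -0.088 and -0.087 for Lin54, -0.33 and -0.34 for Kif20b, -0.83 and -0.83 for Smc2, and -0.58 and -0.58 for Kif11. The causes of these changes were not tested.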
